A study of Mus musculus with 32 samples.

Results

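Multipotent progenitors (MPPs) of mouse bone marrow were compared between 2 fractions of young animals, MPP3 and MPP4. The comparison took the 4 libraries whose labels name a young MPP3 or a young MPP4 sample, of 32 libraries in the series, and set 2 MPP3 libraries against 2 MPP4 libraries. The series profiled 8 fractions of hematopoietic stem and progenitor cells from Young (10 weeks) and Aged (20 months) female C57BL/6 mice by RNA-seq. The labels name no genotype beyond the strain and no treatment. Both fractions were sorted by flow cytometry as lineage-negative, Sca-1+, c-Kit+, CD34+, CD48+ and CD150- cells, and Flt3 separated them: MPP3 cells were Flt3- and MPP4 cells were Flt3+. The lineage stain included antibodies to granulocytes (Gr-1), erythroid cells (Ter-119), B cells (B220), T cells (CD4 and CD8) and the IL-7 receptor, and the antibodies listed by the study also hold a biotin conjugate to the myeloid antigen Mac-1. None of these lineage antibodies is named for mast cells or stroma, while those to c-Kit and Sca-1 were used to keep cells. The study pooled marrow by age and sorted it in duplicate, and elsewhere calls the duplicates biological, so errors and p-values here measure only the spread between these libraries, which may be technical.

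MPP3 and MPP4 lie downstream of the stem cells and of MPP1. MPP3 is known for a bias toward granulocytes and macrophages, and MPP4 for priming toward lymphoid cells, which begins with low expression of lymphoid genes in cells that can still form other lineages. Granulopoiesis runs through granulocyte-macrophage progenitors (GMPs), which make the proteases and myeloperoxidase of primary granules before later precursors make the proteins of secondary and tertiary granules. Lymphoid priming leads to common lymphoid progenitors (CLPs), where terminal transferase and the RAG recombinase prepare the assembly of antigen receptor genes.

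Sequences before the start site are shown for 4 genes. Elane and Prtn3 are a pair of neighbouring granule protease genes that were higher in MPP3. Dntt and Rag1 are the pair of recombination genes with the largest differences toward MPP4. Each sequence holds the 250 bases before the RefSeq start site (build GRCm38.p6), written 5′ to 3′ on the strand of the gene. The GENCODE annotation, used for gene positions, starts Elane at 79886247, so the last part of its window lies within that gene. It starts Prtn3 at 79874476, so the whole Prtn3 window lies within that gene. Capitals mark GAGGAA, the core that ETS factors such as PU.1 bind, in the protease genes, and CANNTG, the E-box that basic helix-loop-helix factors such as E2A bind, in the recombination genes. Both strands were searched, and no marked sites overlapped one another. Elane lies on the plus strand at chr10:79886062-79886311, Prtn3 on the plus strand at chr10:79879417-79879666, Dntt on the plus strand at chr19:41029025-41029274 and Rag1 on the minus strand at chr2:101649533-101649782.
Elane: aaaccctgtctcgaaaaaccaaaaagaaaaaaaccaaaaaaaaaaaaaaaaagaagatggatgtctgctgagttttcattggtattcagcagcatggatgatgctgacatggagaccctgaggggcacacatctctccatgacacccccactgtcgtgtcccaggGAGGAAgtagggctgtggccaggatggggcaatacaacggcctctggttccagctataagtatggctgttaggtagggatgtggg
Prtn3: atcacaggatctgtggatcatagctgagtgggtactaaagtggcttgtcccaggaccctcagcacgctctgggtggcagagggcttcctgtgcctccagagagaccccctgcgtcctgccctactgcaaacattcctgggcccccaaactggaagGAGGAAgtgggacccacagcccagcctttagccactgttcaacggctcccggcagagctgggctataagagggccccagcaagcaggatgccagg
Dntt: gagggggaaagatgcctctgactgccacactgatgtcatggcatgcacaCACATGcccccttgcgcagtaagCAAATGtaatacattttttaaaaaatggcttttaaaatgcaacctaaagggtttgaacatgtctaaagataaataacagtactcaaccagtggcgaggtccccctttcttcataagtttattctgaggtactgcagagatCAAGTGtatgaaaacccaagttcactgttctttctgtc
Rag1: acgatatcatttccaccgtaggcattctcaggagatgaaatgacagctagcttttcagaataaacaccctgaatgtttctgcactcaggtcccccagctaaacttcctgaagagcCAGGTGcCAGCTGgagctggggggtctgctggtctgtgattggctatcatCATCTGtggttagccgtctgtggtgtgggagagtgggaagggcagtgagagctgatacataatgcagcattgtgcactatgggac
GAGGAA occurred 1 time in each protease sequence, 85 to 80 bases before the RefSeq start of Elane and 95 to 90 bases before that of Prtn3. CANNTG occurred 3 times in each recombination sequence and 0 times in the protease sequences. The windows of this length over RefSeq promoters numbered 32851, leaving out a chromosome that holds none of these genes. Of them, 23.3% held GAGGAA and 66.2% held CANNTG, so both motifs are common, and a match describes the letters only.

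Library totals were 13489993 and 12183221 counts for MPP3 and 15140331 and 12471169 for MPP4, within the range of 11237384 to 17723245 over all libraries. Genes were tested with the quasi-likelihood test of edgeR on raw counts, fitted on all 32 libraries, and called at a Benjamini-Hochberg adjusted p under 0.01. All log2 differences are MPP3 minus MPP4, and levels are CPM, the counts of a gene scaled to a common library total. The standard error (SE) was worked back from the test, as the absolute log2 difference divided by the square root of its F statistic. It is therefore approximate, and the SEs of separate contrasts need not combine into that of their difference. The root mean square log2 difference over genes was 0.494 between the MPP3 duplicates, 0.519 between the MPP4 duplicates and 0.752 between the means of the fractions. The limit set by a gene without reads, taken as 3 counts in a library, lay between 0.198 and 0.246 CPM and covers counting error only. As these are bulk libraries, fewer cells of a type and less RNA per cell cannot be told apart.

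The antigen that separated the sort differed as sorted. Flt3, the receptor of Flt3 ligand and a driver of lymphoid priming, was at 279.9 and 314.6 CPM in MPP3 and at 1131 and 1123 CPM in MPP4. The log2 difference was -1.93 ± 0.17 (SE, n = 2 per group, edgeR adjusted p = 7.09e-08), and it describes the gate rather than a finding. Flt3 RNA was thus present in cells sorted as Flt3-, at a lower level in both libraries. Cd34, Cd48, Kit and Ly6a (Sca-1), which marked both fractions, were not called, with log2 differences of -0.31, 0.22, 0.37 and 0.31. Slamf1, which encodes CD150 and was selected against in both fractions, was low at 2.08 and 1.72 CPM in MPP3 against 0.198 and 0.481 CPM in MPP4 and was called (log2 difference 2.50 ± 0.56, adjusted p = 0.00515), but the call was lost when any 1 of the 4 libraries was left out (edgeR adjusted p up to 0.119).

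Of 14154 tested genes, 509 (3.6%) were called higher in MPP3 and 309 (2.18%) higher in MPP4. Differences toward MPP3 were larger: 326 of the MPP3 genes and 118 of the MPP4 genes differed by a log2 of at least 1, and the medians of the called genes were 1.54 and -0.80. The median over all tested genes was 0.0068. Of the genes higher in MPP3, 41 had 0 counts in both MPP4 libraries, against 1 of the MPP4 genes with 0 counts in both MPP3 libraries. The number of calls rested on all 4 libraries, since leaving out 1 at a time gave 424 to 513 calls, of which 414 to 486 were among the 818, with the fewest without MPP4 replicate 1.

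**Figure D1:**
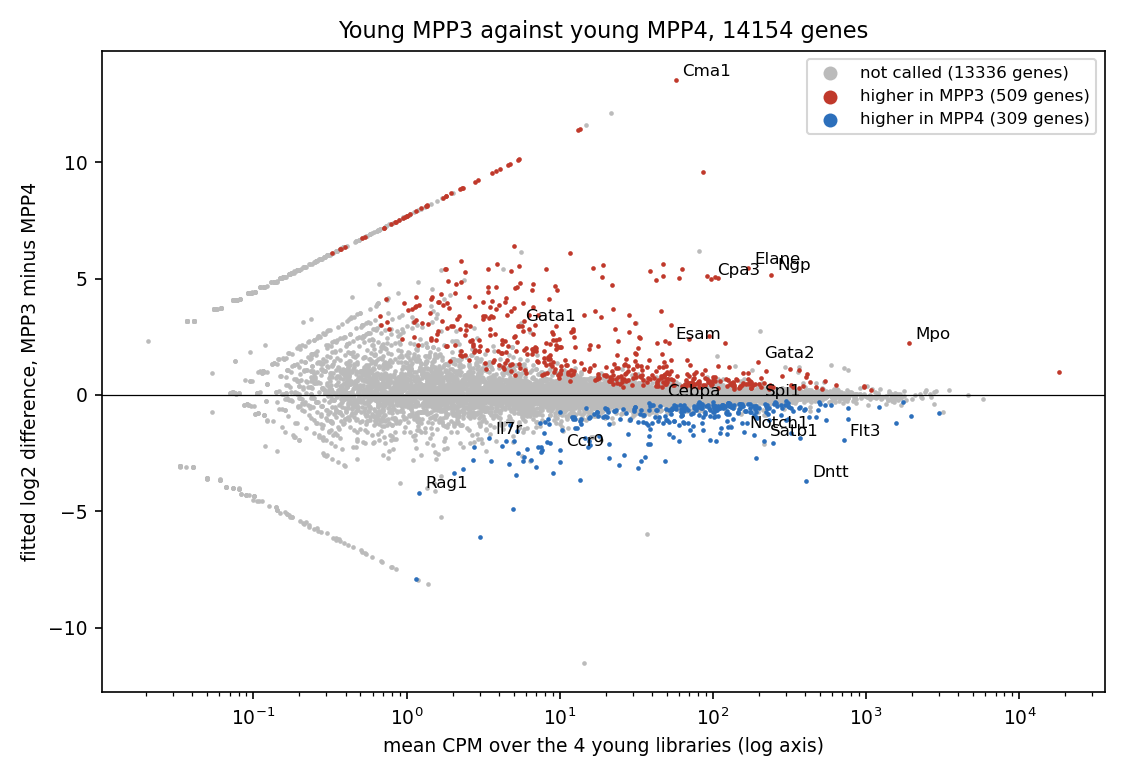
Each point is one of 14154 tested genes, with its mean CPM over the 4 young libraries on a log axis and its fitted log2 difference on the vertical axis. The 509 genes higher in MPP3 (red) reach larger differences than the 309 higher in MPP4 (blue), and the slanted lines of points at the outer edges are genes with 0 counts in both libraries of 1 fraction, whose fitted difference is no bound.

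**Figure D2:**
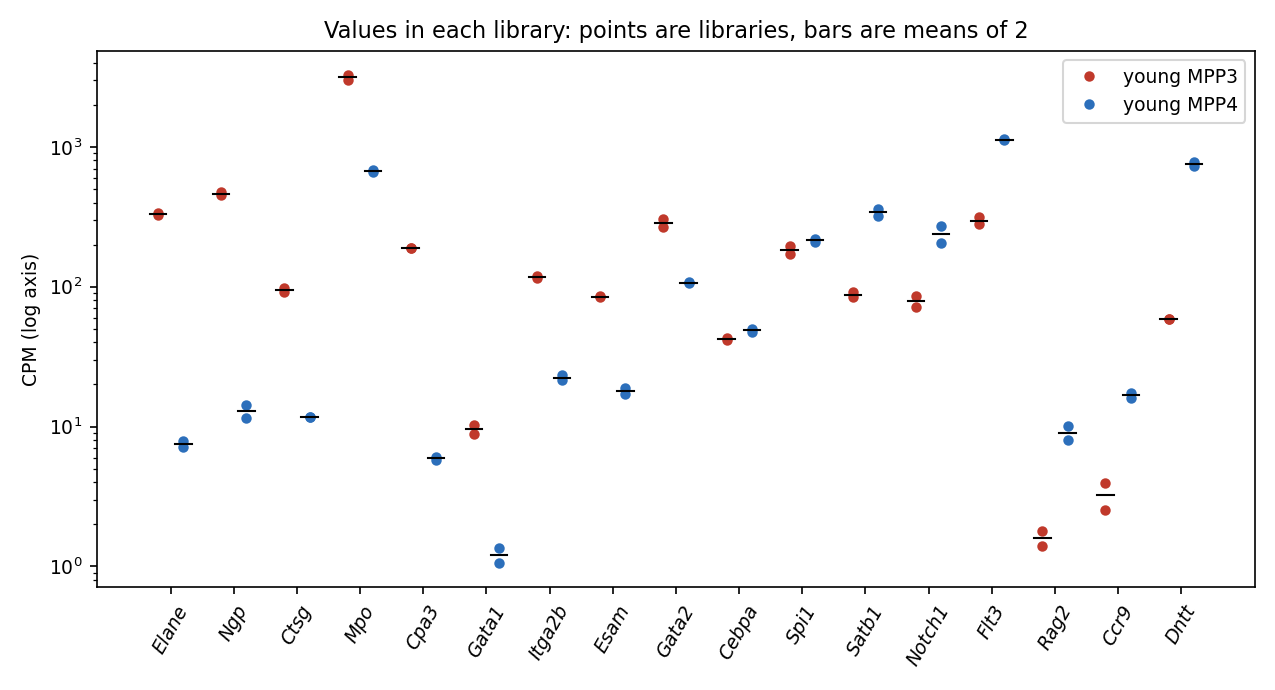
CPM of 17 genes in each young library on a log axis, with points for libraries and short bars for the mean of 2. The MPP3 and MPP4 points do not overlap for any gene shown, as was so for 6879 of all 14154 tested genes. For Spi1 the gap between the fractions is smaller than that between the MPP3 duplicates.

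Granule genes of neutrophils were higher in MPP3 in most cases. Of 27 tested members of a list of neutrophil granule and oxidase genes, 21 were called higher in MPP3, 1 higher in MPP4 and 5 in neither direction, and the median log2 difference was 4.52. Elane (neutrophil elastase, chr10:79886247-79888215, plus strand) was at 327 and 339 CPM in MPP3 and at 7.13 and 7.94 CPM in MPP4, a log2 difference of 5.46 ± 0.47 (adjusted p = 3.34e-08). Mpo (myeloperoxidase, chr11:87793581-87804413, plus strand) was at 3032 and 3259 CPM in MPP3 and at 662.9 and 686.1 CPM in MPP4, a log2 difference of 2.22 ± 0.40 (adjusted p = 0.000543). The fractions did not overlap for either gene, as was so for 6879 of all 14154 tested genes. The Mpo call was lost when either MPP4 library was left out. Ctsg (cathepsin G) was at 97.5 and 91.4 CPM against 11.7 and 11.6 CPM, with a log2 difference of 3.01 ± 0.28 (adjusted p = 1.08e-07). Prtn3 (proteinase 3) differed less, at 293 and 305 CPM against 140 and 155 CPM (log2 difference 1.02 ± 0.16, adjusted p = 0.000135), so both fractions held this protease transcript at a sizeable level. Hp (haptoglobin) differed by a log2 of 5.59 ± 0.31 (adjusted p = 3.88e-11). Mmp8 (neutrophil collagenase) and Fcnb (ficolin B) had 0 counts in both MPP4 libraries and 10.9 and 10.6 CPM on average in MPP3, which makes them at least 49.5-fold and at least 48.4-fold higher.

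Genes of later granules were also higher in MPP3. Named after their values were seen, Ltf (lactoferrin) was at 192 and 224 CPM in MPP3 and at 5.28 and 7.62 CPM in MPP4, Ngp (neutrophilic granule protein) at 455 and 472 against 11.5 and 14.3 CPM, and Camp (cathelicidin) at 99.9 and 83.7 against 2.44 and 2.89 CPM. Their log2 differences were 5.02 ± 0.41, 5.17 ± 0.29 and 5.11 ± 0.36 (adjusted p at most 2.97e-08). The calgranulins S100a8 and S100a9 differed by 5.10 ± 0.37 and 5.07 ± 0.40. In young GMPs, where Elane reached 11770 CPM and Mpo 56020 CPM on average, Ltf, Ngp and Camp stood at 7.26, 12.5 and 5.13 CPM, all below their level in MPP3. Other young fractions held more: Ltf was at 130.5 and 131.1 CPM in MPP2 and at 127.5 and 131.8 CPM in CLPs. Ngp averaged 269.2 CPM in young MPP2 and 184.0 CPM in young CLPs. The exception in the list was Ncf1, a cytosolic subunit of the NADPH oxidase, at 67.2 and 72.5 CPM in MPP3 and at 186 and 178 CPM in MPP4 (log2 difference -1.39 ± 0.13, adjusted p = 1.46e-07), whereas Cybb, the membrane subunit of the same oxidase, was higher in MPP3 by 3.67 ± 0.33 (adjusted p = 5.10e-08).

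Most listed transcription factors of the myeloid program were not called. Over all tested genes, 3.6% were called higher in MPP3 and 2.18% higher in MPP4. Of 15 tested myeloid transcription factors, 1 was higher in MPP3, 2 were higher in MPP4 and 12 were not called (median log2 difference -0.19, and -0.12 without MPP3 replicate 1). Cebpe, which drives terminal granulocyte differentiation and the secondary granule genes, was at 7.63 and 6.65 CPM in MPP3 and at 0.528 and 0.561 CPM in MPP4 (log2 difference 3.69 ± 0.42, adjusted p = 2.35e-06). Cebpa, the factor that opens the granulocyte program, was at 42.9 and 41.8 CPM in MPP3 and at 50.0 and 47.4 CPM in MPP4 and was not called (log2 difference -0.21 ± 0.15, adjusted p = 0.528). Spi1 (PU.1) and Gfi1 were not called either, at -0.23 ± 0.08 (adjusted p = 0.102) and -0.51 ± 0.18 (adjusted p = 0.0920), and Irf8, a factor of monocytes and dendritic cells, was near 0 at 0.04 ± 0.13 (adjusted p = 0.948). Irf8 was not a gene of the myeloid side alone, since it averaged 896.1 CPM in young GMPs and 3070 CPM in young CLPs. The members called higher in MPP4 were Nr4a1, an immediate early nuclear receptor (-1.22 ± 0.18, adjusted p = 6.88e-05), and Rara, the retinoic acid receptor alpha (-0.76 ± 0.14, adjusted p = 0.00103), whose call was lost without MPP3 replicate 2 or MPP4 replicate 1 (adjusted p up to 0.0205).

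Some monocyte genes were higher in MPP3. Of 19 tested members, 5 were higher in MPP3 (3 without MPP3 replicate 1) and 0 higher in MPP4, with a median of 0.37. Ly6c2, the monocyte antigen Ly6C, was at 121 and 125 CPM in MPP3 and at 2.31 and 3.45 CPM in MPP4 (5.43 ± 0.24, adjusted p = 1.20e-12). F13a1 (coagulation factor XIII, of the monocyte lineage) differed by 3.62 ± 0.25 (adjusted p = 1.77e-09) and Ly86, the partner of RP105, by 1.77 ± 0.21 (adjusted p = 6.04e-06). The chemokine receptor genes Ccr2 (1.74 ± 0.34) and Cx3cr1 (1.51 ± 0.31) were called too, but Ccr2 lost the call without MPP3 replicate 1 or MPP4 replicate 1 (adjusted p up to 0.0448) and Cx3cr1 without either MPP3 library or MPP4 replicate 2 (adjusted p up to 0.0505). Csf1r, the receptor of macrophage colony-stimulating factor, was at 33.6 and 36.0 against 23.5 and 20.4 CPM and did not pass (0.65 ± 0.19, adjusted p = 0.0292).

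Among 34 tested cytokine receptor genes, 2 were higher in MPP3 and 7 higher in MPP4, with a median of 0.018, which was -0.041 without MPP3 replicate 2 and -0.049 without MPP4 replicate 1. The receptors of the granulocyte factors were not called. Csf3r, the G-CSF receptor, was at 222 and 249 CPM in MPP3 and at 247 and 244 CPM in MPP4 (-0.07 ± 0.10, adjusted p = 0.838), and Csf2ra, of the GM-CSF receptor, differed by -0.07 ± 0.12 (adjusted p = 0.852). Il1rl1, the IL-33 receptor ST2 of mast cells and basophils, was at 15.9 and 16.1 CPM against 0.264 and 0.481 CPM (5.42 ± 0.44, adjusted p = 4.33e-08), and Epor, the erythropoietin receptor, was higher in MPP3 by 2.30 ± 0.42 (adjusted p = 0.000793, lost at 0.0160 without MPP4 replicate 2). On the MPP4 side, Il1r1, the signalling IL-1 receptor, was at 52.9 and 56.1 CPM in MPP3 and at 174 and 161 CPM in MPP4 (-1.63 ± 0.17, adjusted p = 8.25e-07). Beside Flt3, Il1r1 and Il7r, the MPP4 side held Il17ra (-0.55 ± 0.09), Ifnar2 (-0.39 ± 0.08), Il10ra (-0.87 ± 0.17) and Il21r (-0.55 ± 0.13). Leaving out 1 library at a time left 3 to 5 of these 7 calls, with fewest without MPP3 replicate 1 and 4 without MPP3 replicate 2 or MPP4 replicate 2. Il21r lost the call in all of these fits, Il10ra without either MPP3 library or MPP4 replicate 1, and Ifnar2 without MPP3 replicate 1 or MPP4 replicate 2 (adjusted p up to 0.0792, 0.0301 and 0.0261).

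Mast cell, basophil and eosinophil genes were mostly called higher in MPP3, 13 of 15 tested members with 0 toward MPP4 and a median of 4.66, or 3.63 with genes at 0 in MPP4 set to their bound. The count was 10 with DESeq2 and 10 to 12 when 1 library was left out, with the fewest without MPP4 replicate 1. The summed level of the list was 608.7 to 611.7 CPM in MPP3 and 49.1 to 57.5 CPM in MPP4. Cpa3 (carboxypeptidase A3, of mast cells and their progenitors) was at 189.0 CPM in both MPP3 libraries and at 5.81 and 6.09 CPM in MPP4 (4.99 ± 0.13, adjusted p = 1.03e-16), the smallest p of the comparison among the genes named here. Prg2 (eosinophil major basic protein) was at 96.4 and 89.9 CPM against 1.78 and 1.92 CPM (5.64 ± 0.45, adjusted p = 3.82e-08). Cma1 (mast cell chymase), Epx (eosinophil peroxidase) and Fcer1a (the IgE receptor alpha chain) had 0 counts in both MPP4 libraries and 115.4, 26.2 and 9.12 CPM on average in MPP3, at least 525.9-fold, 119.6-fold and 41.6-fold higher. The edgeR adjusted p of Cma1 was 1.77e-06, while DESeq2 gave 0.401. Cd200r3, another gene at 0 in MPP4, lost its call when any 1 library was left out (adjusted p up to 0.0495) and with DESeq2 (0.345). The basophil proteases Prss34 and Mcpt8 differed by 1.73 ± 0.27 (adjusted p = 0.000652, lost at 0.0187 without MPP4 replicate 1) and 1.54 ± 0.26 (adjusted p = 0.000434).

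The mast cell protease genes Cma1, Mcpt4 and Tpsb2 were at or near 0 in each young fraction other than MPP3, while other genes of the list were not. Cma1 was at 0.477 CPM on average in MPP2 and 0.367 CPM in GMPs and at 0 in HSCs, MPP1, MEPs and CLPs. Among the genes with the largest differences, Mcpt4, another chymase, was at 27.8 and 26.2 CPM in MPP3 and at 0 in each other young fraction, and the tryptase gene Tpsb2 was at 171.7 and 173.8 CPM in MPP3, at 0 and 0.481 CPM in MPP4 and at 0.539 CPM in MPP2 (log2 difference 9.56 ± 0.44, adjusted p = 5.10e-08). Among the other members, Cpa3 averaged 122.2 CPM in young GMPs and 97.5 CPM in CLPs against 189.0 CPM in MPP3. Fcer1a averaged 50.4 CPM in CLPs against 9.12 CPM in MPP3, and Il1rl1, of the cytokine receptor list, 101.1 CPM in MEPs against 15.9 and 16.1 CPM in the MPP3 libraries. Epx and Prg2 were higher in young GMPs (265.3 and 977.2 CPM) and CLPs (175.6 and 365.3 CPM) than in MPP3. The share of these transcripts that came from progenitors or from other cells in the gate was not tested.

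**Figure D3:**
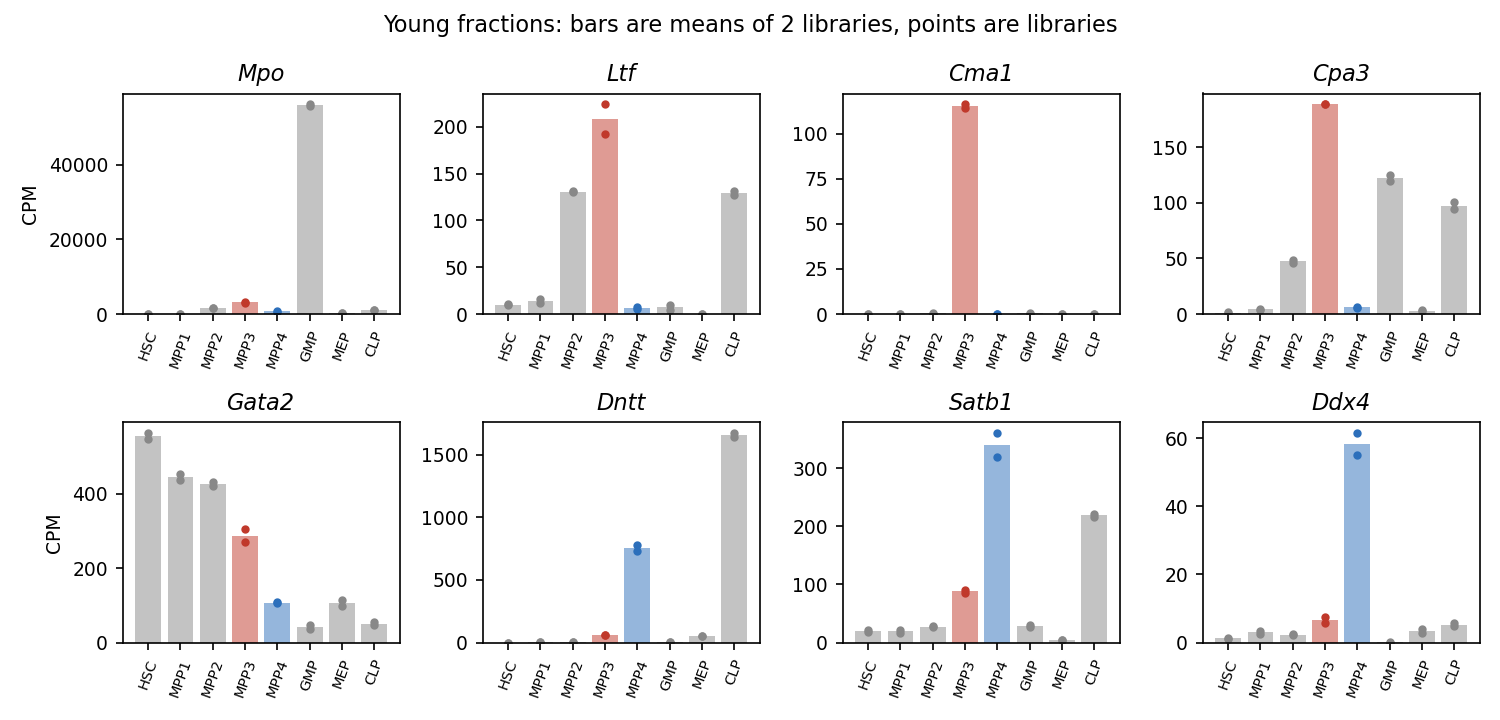
CPM of 8 genes in the 8 young fractions, with bars for the mean of 2 libraries and points for libraries, MPP3 in red and MPP4 in blue, each panel on its own linear axis from 0. Mpo is highest in GMPs, Ltf and Cpa3 in MPP3, Cma1 in MPP3 with other fractions near 0, Gata2 in HSCs, Dntt in CLPs, and Satb1 and Ddx4 in MPP4.

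Megakaryocyte and erythroid genes were higher in MPP3 as a group. Of 37 tested members, 20 were called higher in MPP3 and 0 higher in MPP4, with a median of 2.23. Gata1, the master factor of both lineages, was at 10.3 and 8.78 CPM in MPP3 and at 1.06 and 1.36 CPM in MPP4 (2.98 ± 0.28, adjusted p = 1.44e-07), and Klf1, the erythroid Kruppel-like factor, differed by 2.84 ± 0.31 (adjusted p = 1.34e-06). Itga2b, the CD41 integrin of megakaryocytes, was at 115 and 120 CPM against 21.5 and 23.3 CPM (2.39 ± 0.16, adjusted p = 9.84e-10). Pf4 (platelet factor 4) and Car1 (carbonic anhydrase 1 of erythroid cells) differed by 2.96 ± 0.43 and 2.82 ± 0.51, and the Car1 call was lost when either MPP4 library was left out (adjusted p up to 0.0162) and with DESeq2 (0.0944). The members with the largest differences were Rhd (4.50 ± 0.41), Cited4 (3.99 ± 0.39), Ermap (3.46 ± 0.33) and Aqp1 (3.44 ± 0.30). The MPP3 level of Gata1 and Klf1 stayed far below that of young MEPs, 411.9 and 958.3 CPM.

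Stem cell genes leaned the same way, with 11 of 30 tested members higher in MPP3, 1 higher in MPP4 and a median of 0.58. Esam, an adhesion molecule of stem cells, was at 85.9 and 84.3 CPM in MPP3 and at 17.0 and 18.8 CPM in MPP4 (2.25 ± 0.19, adjusted p = 3.68e-08). Gata2, which maintains stem cells and also serves mast cells, was at 270 and 305 CPM against 107 and 107 CPM (1.42 ± 0.21, adjusted p = 5.43e-05). The receptor genes Tek (2.32 ± 0.42) and Tie1 (1.25 ± 0.18) and the adhesive factor Vwf (2.47 ± 0.36) were called, Tek with a loss at an adjusted p of 0.0238 without MPP4 replicate 2 and of 0.0261 with DESeq2. Hlf and Mecom, transcription factors of stem cells, were not called (0.05 ± 0.16 and 0.32 ± 0.15), nor was Procr (0.61 ± 0.17, adjusted p = 0.0262). Hoxa9 was the member higher in MPP4, at 66.3 and 71.5 CPM in MPP3 and at 134 CPM in both MPP4 libraries (-0.97 ± 0.15, adjusted p = 9.71e-05). Without MPP4 replicate 2, 7 of the 11 calls toward MPP3 were made.

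The recombination genes held the members with the largest differences toward MPP4 among the lymphoid lists. Dntt (terminal deoxynucleotidyl transferase, which adds bases at antigen receptor junctions, chr19:41029275-41059525, plus strand) was at 58.4 and 59.0 CPM in MPP3 and at 734 and 779 CPM in MPP4. The log2 difference was -3.69 ± 0.11 (adjusted p = 3.56e-13), and the call held without any 1 library. Rag1 had 3 and 0 counts in MPP3 and 33 and 30 counts in MPP4, a ratio of 19.5 toward MPP4 with a 95% counting interval of 6.38 to 97.2 (adjusted p = 0.000704, 0.0117 without MPP3 replicate 2 and 0.0142 on the libraries of the comparison alone). Rag2 was at 1.78 and 1.40 CPM against 10.0 and 8.02 CPM (-2.50 ± 0.46, adjusted p = 0.00112, lost without either MPP3 library or MPP4 replicate 1 at up to 0.0266), and Blnk, a B cell linker, differed by -1.98 ± 0.33 (adjusted p = 0.000297, lost at 0.0146 without MPP3 replicate 1). In all, 4 of the 10 members of a list of recombination and pre-B cell receptor genes were higher in MPP4, 2 were higher in MPP3 and the median was -0.22. Leaving out either MPP3 library left 2 calls toward MPP4. The median was not stable, at -0.67 without MPP3 replicate 1, 0.023 without MPP3 replicate 2, -0.13 without MPP4 replicate 2 and -1.11 for the 8 members tested on the 4 libraries alone. Whether the E-boxes marked above act in these cells was not tested.

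Transcription factors of lymphoid cells were split, 9 of 34 tested members higher in MPP4 and 5 higher in MPP3, with a median of -0.058. Satb1, a chromatin organizer of early lymphoid cells, was at 85.0 and 91.0 CPM in MPP3 and at 362 and 319 CPM in MPP4 (-1.96 ± 0.13, adjusted p = 1.00e-09). Notch1, the receptor that sets the T cell fate, was at 85.2 and 72.0 CPM against 271 and 206 CPM (-1.60 ± 0.22, adjusted p = 1.93e-05). Ets1 (-0.85 ± 0.13, adjusted p = 0.000127) and Mef2c (-0.71 ± 0.10, adjusted p = 3.23e-05) were higher in MPP4 with every library left out in turn. Bcl11a (-0.49 ± 0.10), Ikzf1 (-0.46 ± 0.11), Tcf4 (-0.51 ± 0.10), Nfil3 (-0.96 ± 0.21) and Pou2f2 (-0.74 ± 0.15) were called on the 4 libraries and lost the call in at least 3 of the 4 fits that left 1 out (adjusted p up to 0.112). These 9 calls fell to 4 without either MPP3 library, 5 without MPP4 replicate 1 and 6 without MPP4 replicate 2.

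The lymphoid factors higher in MPP3 are known from T cells, B cells and innate lymphoid cells, but their levels in other young fractions differed. Tcf7 and Pou2af1 averaged 32.3 and 255.6 CPM in CLPs. Zbtb16 averaged 6.25 CPM in HSCs, 6.31 CPM in MPP1 and 7.98 CPM in MPP2, against 3.46 CPM in MPP3. Bcl11b averaged 2.92 CPM in MEPs and 0.776 CPM in CLPs. Tcf7, a T lineage factor, was at 10.7 and 10.5 CPM in MPP3 and at 0.264 and 0.481 CPM in MPP4 (4.82 ± 0.58, adjusted p = 4.66e-06), and Pou2af1, a B cell coactivator, at 2.82 and 2.13 against 0.264 and 0.321 CPM (3.06 ± 0.46, adjusted p = 0.000216). Gata3 (0.76 ± 0.16), Zbtb16 (1.72 ± 0.39) and Bcl11b, which had 23 counts in each MPP3 library and 0 in MPP4, made up the rest (Bcl11b with an adjusted p of 0.0248 with DESeq2 and 0.0147 with a replicate block), and each lost the call in at least 3 of the fits without 1 library (adjusted p up to 0.104). The recombination list held Igll1, a surrogate light chain (3.22 ± 0.35, adjusted p = 2.14e-05), and Cd79a (2.37 ± 0.52, adjusted p = 0.00573, lost in 3 fits at up to 0.0396) on the same side. Their counts were low, 26 to 36 in each MPP3 library. The pan-T gene Cd3e did not differ detectably at this depth, with 0 and 3 counts in MPP3 against 0 and 0 counts in MPP4.

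Surface and signalling genes of lymphoid cells numbered 7 higher in MPP4 and 1 higher in MPP3 of 31 tested members (median 0.00). Ccr9, the receptor that brings progenitors to the thymus, was at 2.52 and 3.94 CPM in MPP3 and at 17.3 and 16.1 CPM in MPP4 (-2.38 ± 0.32, adjusted p = 2.67e-05). Ccr7 differed by -2.35 ± 0.41 (adjusted p = 0.000628, lost at 0.0232 without MPP3 replicate 1), and the kinase gene Lck and the adaptor gene Lax1 by -1.30 ± 0.18 (adjusted p = 2.11e-05) and -1.21 ± 0.18 (adjusted p = 9.13e-05). Il7r, the IL-7 receptor that the lineage stain also covered, was at 1.26 and 1.72 CPM against 4.62 and 6.25 CPM (-1.86 ± 0.37, adjusted p = 0.00313) and lost the call without either MPP3 library or MPP4 replicate 2 (adjusted p up to 0.0565). In young CLPs, Il7r reached 150.9 CPM, Ccr9 231.3 CPM and Dntt 1661 CPM on average. Ltb (lymphotoxin beta) was not called, at 146 and 148 against 136 and 153 CPM (0.02 ± 0.12). Without MPP3 replicate 1 and without MPP4 replicate 2, 3 and 4 of the 7 calls toward MPP4 were made.

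**Figure D4:**
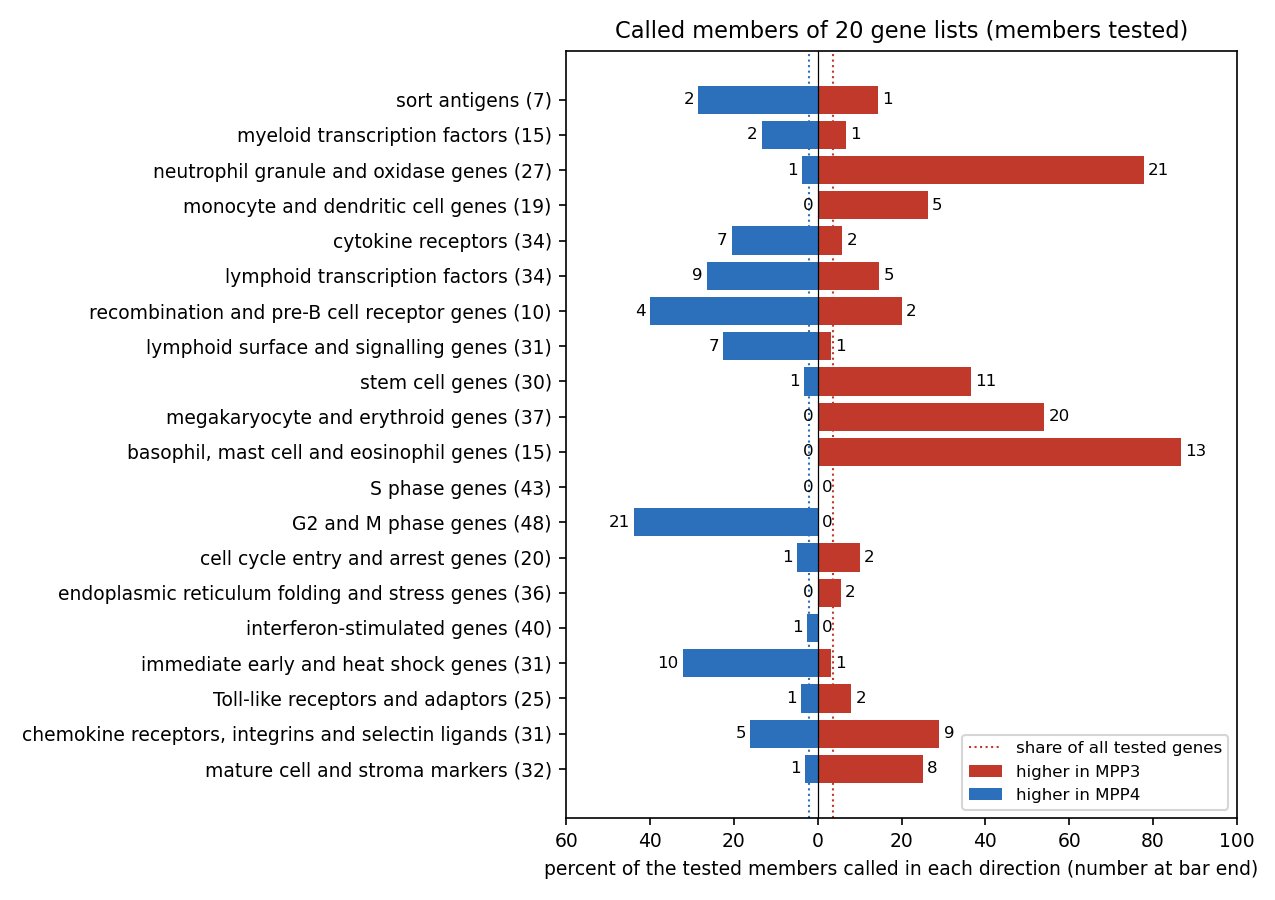
For each of 20 gene lists, bars give the percent of tested members called higher in MPP3 (red, right) or higher in MPP4 (blue, left), with the number called at the bar end and the number tested in parentheses. Dotted lines mark the shares over all tested genes, 3.6% and 2.18%, and the neutrophil, mast cell and megakaryocyte and erythroid lists reach furthest to the right, the G2 and M phase and recombination lists furthest to the left.

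Genes of the G2 and M phases were higher in MPP4. Of 48 G2 and M phase genes, 21 were called higher in MPP4 and 0 higher in MPP3, and 47 had a negative log2 difference (median -0.47). Of 43 S phase genes, 0 were called in either direction (median -0.052), and Mcm5, a replication helicase subunit, was at 551 CPM in both MPP3 libraries and at 561 and 546 CPM in MPP4. Kif23, a kinesin of cell division, was at 62.9 and 71.9 CPM in MPP3 and at 128 and 120 CPM in MPP4 (-0.88 ± 0.09, adjusted p = 6.12e-07), followed by Cenpe (-0.81 ± 0.18), Nusap1 (-0.77 ± 0.10) and Cdc25c (-0.73 ± 0.15). Mki67 was at 112 and 110 CPM in MPP3 and at 252 and 135 CPM in MPP4, so the MPP4 duplicates differed among themselves more than the lower one differed from MPP3, and it was not called (-0.81 ± 0.21, adjusted p = 0.0126). The differences were small, and the count of 21 fell to 2 without MPP3 replicate 1, 6 without MPP3 replicate 2, 7 without MPP4 replicate 1 and 12 without MPP4 replicate 2, while the median stayed between -0.51 and -0.41. On the 4 libraries alone 7 were called and with DESeq2 34. Cenpe lost its call without either MPP3 library or MPP4 replicate 1 (adjusted p up to 0.194) and Cdc25c without any 1 library (up to 0.0524).

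Of 20 genes of cell cycle entry and arrest, Cdk6 and Ccnd3 (a kinase and a cyclin of G1) were higher in MPP3 and Cdkn1a (the inhibitor p21) was higher in MPP4, with a median of -0.011, which was 0.018 without MPP3 replicate 2 and 0.0020 without MPP4 replicate 1. Cdkn1a was at 41.1 and 43.8 CPM in MPP3 and at 115 and 98.1 CPM in MPP4 (-1.33 ± 0.12, adjusted p = 1.23e-07). Cdk6 differed by 0.62 ± 0.11 (adjusted p = 0.000605, lost without MPP3 replicate 1 or MPP4 replicate 2 at up to 0.0384) and Ccnd3 by 0.41 ± 0.08 (adjusted p = 0.00104, lost in 3 fits at up to 0.0157). Ccnd2 (0.24 ± 0.13) and Myc (0.25 ± 0.18) were not called.

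Immediate early and heat shock genes were called higher in MPP4 in 10 of 31 cases and higher in MPP3 in 1 (median -0.33), and 6 of the 10 calls were made without MPP3 replicate 1. Nr4a1 was at 903.0 and 974.0 CPM in MPP3 and at 2481 and 1885 CPM in MPP4, and Junb at 1318 and 1408 against 2592 and 2507 CPM (-0.91 ± 0.16, adjusted p = 0.000375). Ier5 (-1.22 ± 0.18, adjusted p = 6.29e-05) and Dusp2, a phosphatase of the MAP kinase pathway (-1.02 ± 0.09, adjusted p = 1.00e-07), were higher in MPP4, as were Atf3 (-1.11 ± 0.26) and Socs3 (-1.07 ± 0.23), both of which lost the call when any 1 library was left out (adjusted p up to 0.0975). Fos, Jun and Egr1, immediate early transcription factors, were not called (-0.02 ± 0.22, -0.20 ± 0.19 and -0.17 ± 0.13), and Fos stood at 4493 to 4722 CPM in each library. Cyr61, a matricellular factor, was the member higher in MPP3 (3.83 ± 0.53, adjusted p = 8.39e-05).

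Most members of the stress and inflammation lists were not called. The shares called over all tested genes were 3.6% toward MPP3 and 2.18% toward MPP4. Of 36 genes of endoplasmic reticulum folding and stress, Calr (calreticulin, 0.39 ± 0.05, adjusted p = 3.15e-06, and 0.0196 on the 4 libraries alone) and Sdf2l1 (0.42 ± 0.10, adjusted p = 0.00534, lost without either MPP3 library or MPP4 replicate 1 at up to 0.149) were higher in MPP3 and 0 higher in MPP4 (median 0.073). Hspa5, the chaperone BiP, and Xbp1 were not called (-0.17 ± 0.09 and 0.29 ± 0.10). Of 40 interferon-stimulated genes, 0 were higher in MPP3 and Irf1 was higher in MPP4 (-0.97 ± 0.10, adjusted p = 6.91e-07), with a median of 0.025. Of 25 tested Toll-like receptor and adaptor genes, Tlr7, a sensor of RNA, was higher in MPP4, at 5.71 and 5.50 CPM in MPP3 and at 36.1 and 36.2 CPM in MPP4 (-2.69 ± 0.41, adjusted p = 9.95e-05), and Ly86 and Irak3 were higher in MPP3, the latter with its call lost when any 1 library was left out (adjusted p up to 0.0365). Tlr4 was not called (0.02 ± 0.36), and Tlr9 had at most 4 counts in any of these libraries.

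Adhesion and migration genes went both ways, 9 of 31 tested members higher in MPP3 and 5 higher in MPP4 (median 0.19). Itga2b and Itgb3, which form the platelet fibrinogen receptor, were both higher in MPP3 (2.39 ± 0.16 and 2.36 ± 0.41, the latter lost at an adjusted p of 0.0155 without MPP4 replicate 1), as was Cd9 (1.00 ± 0.16, adjusted p = 0.000186). Itga1, a collagen receptor chain, had 14 and 22 counts in MPP3 and 0 in MPP4 (adjusted p = 0.0157 on the 4 libraries alone). Higher in MPP4 were Ccr7, Ccr9, Itgb5 (-1.21 ± 0.16, adjusted p = 1.94e-05), Itgal, the LFA-1 chain (-0.83 ± 0.17), and Cd44 (-0.29 ± 0.06), of which Itgal and Cd44 lost the call when any 1 library was left out (adjusted p up to 0.0367). That left 2 calls toward MPP4 without MPP3 replicate 1 and 3 without each other library. Cxcr4, the CXCL12 receptor that holds progenitors in marrow, was not called (0.03 ± 0.20).

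Some markers of mature cells and stroma were higher in MPP3 as well. Of 32 tested markers, 8 were higher in MPP3 and 1 higher in MPP4, with a median of 1.23, and their summed level was 1027 to 1066 CPM in MPP3 and 572.9 to 623.8 CPM in MPP4. Cxcl12, the chemokine of marrow stroma, was at 74.8 and 75.8 CPM in MPP3 and at 2.05 and 1.60 CPM in MPP4 (5.34 ± 0.59, adjusted p = 2.74e-06). Retnlg, of mature neutrophils, had 124 and 75 counts against 4 and 0 (5.65 ± 0.83, adjusted p = 0.000100), Jchain, of plasma cells, was at 56.6 and 54.1 against 4.82 and 8.18 CPM (3.10 ± 0.34, adjusted p = 5.16e-06), and Slc4a1, the red cell anion exchanger, at 52.6 and 52.0 against 4.69 and 4.81 CPM (3.46 ± 0.64, adjusted p = 0.000874, lost without either MPP4 library at up to 0.0225). Others were Col1a2 (2.13 ± 0.41), Vcam1 (1.25 ± 0.19) and Slc40a1 (1.07 ± 0.16), and 5 of the 8 calls were made without MPP4 replicate 2. Col1a2 lost the call without either MPP3 library or MPP4 replicate 2 (adjusted p up to 0.0384). Several of the 8 genes were not particular to MPP3 among the young fractions. Cxcl12 averaged 62.4 CPM in MPP2 against 75.3 CPM in MPP3, and Slc4a1 53.0 CPM in MPP2 against 52.3 CPM in MPP3. Jchain averaged 84.0 CPM in CLPs against 55.4 CPM in MPP3, and Retnlg 19.1 CPM in CLPs against 7.67 CPM in MPP3. Sdc1 (syndecan-1, CD138) was higher in MPP4, at 40.5 and 43.4 CPM in MPP3 and at 164 and 169 CPM in MPP4 (-1.99 ± 0.13, adjusted p = 9.84e-10). Cd3g and Pax5 had 0 counts in all 4 libraries, and the macrophage genes C1qa, C1qb and C1qc did not pass (adjusted p at least 0.0518). The part of such cells in the differences of the granule, mast cell and erythroid genes was not tested.

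The remaining genes with the largest differences toward MPP3 included further genes at 0 in both MPP4 libraries. Igfbp5, an insulin-like growth factor binding protein, averaged 9.52 CPM in MPP3 (at least 43.4-fold higher), the lipoxygenase Alox15 averaged 8.14 CPM (at least 37.1-fold), the neutrophil integrin gene Itgb2l 7.67 CPM (at least 35.0-fold, lost without either MPP4 library at an adjusted p up to 0.0247), the complement inhibitor Serping1 7.21 CPM (at least 32.9-fold) and Wfdc21 5.83 CPM (at least 26.6-fold). Of these, Wfdc21 was higher in young GMPs, at 19.5 CPM, and Igfbp5 was at 0 there. In young MPP2, Igfbp5 averaged 11.5 CPM and Serping1 6.99 CPM, and Alox15 averaged 23.7 CPM in young CLPs.

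Toward MPP4, the largest differences outside the lists belonged to genes at a low level. Ddx4, the germ cell helicase vasa, was at 7.49 and 5.83 CPM in MPP3 and at 55.0 and 61.7 CPM in MPP4 (-3.13 ± 0.30, adjusted p = 2.41e-07), and no other young fraction averaged above 5.21 CPM. Emp1, an epithelial membrane protein, was at 5.12 and 5.50 against 44.1 and 42.3 CPM (-3.03 ± 0.23, adjusted p = 3.34e-08) and at 50.8 CPM in young CLPs. Slc18a1, a vesicular monoamine transporter, was at 2.08 and 1.89 against 23.7 and 26.6 CPM (-3.66 ± 0.58, adjusted p = 0.000183). Rasal1, a Ras GTPase activator, was at 0 and 0.657 against 9.97 and 9.14 CPM (-4.89 ± 0.63, adjusted p = 0.000365). Ctnnd2, a delta-catenin, had 0 and 2 counts against 93 and 72, a ratio of 76.7 with a counting interval of 20.9 to 638.7. Kcng1 (-2.87 ± 0.45), Mrvi1 (-2.83 ± 0.51), Il10 (-3.45 ± 0.62), Cd6 (-3.08 ± 0.61), Postn (-3.36 ± 0.69), Fcrl1 (-2.98 ± 0.64) and Ctnnd2 lost the call when at least 1 library was left out (adjusted p up to 0.0785), in all 4 cases for Ctnnd2, Postn and Fcrl1, and Ctnnd2 also with DESeq2 (0.537).

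The same genes were read in young GMPs and CLPs, which share no library with the comparison. Of the 14154 tested genes, 3733 (26.4%) were called higher in GMPs and 3925 (27.7%) higher in CLPs. Of the 509 genes higher in MPP3, 247 (48.5%) were called higher in GMPs and 114 (22.4%) higher in CLPs, with a median GMP minus CLP log2 difference of 0.76. Of the 309 genes higher in MPP4, 24 (7.77%) were called higher in GMPs and 255 (82.5%) higher in CLPs, with a median of -1.65. Among the 6 other young fractions, 56.3% of the MPP4 genes had their highest mean in CLPs, against 17.9% of all tested genes. The MPP3 genes had no such single fraction: 28.3% were highest in HSCs, 24.6% in GMPs and 20.8% in MEPs, against 27.9%, 10.1% and 23.8% of all tested genes. Single genes departed from this order, since Elane was higher in GMPs by 6.51 and Mpo by 5.87 on the log2 scale, whereas Ltf and Ngp were lower in GMPs than in CLPs, at -3.92 and -3.64. Mpo was nevertheless at 1126 CPM on average in young CLPs.

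The contrast between the fractions was also measured at 20 months in 4 other libraries. There, 328 genes (2.32%) were called higher in MPP3 and 273 (1.93%) higher in MPP4. Of the 509 young MPP3 genes, 243 (47.7%) were called higher in aged MPP3 and 0 higher in aged MPP4, and of the 309 young MPP4 genes, 160 (51.8%) were called higher in aged MPP4 and 0 higher in aged MPP3. The median aged log2 differences of these genes, which were chosen by their young values, were 1.09 and -0.59. Dntt (-3.88 ± 0.11), Satb1 (-2.28 ± 0.13) and Flt3 (-1.96 ± 0.17) were the aged values beside the young values given above, and Elane stood at 5.41 ± 0.51. The difference between ages was not called for these genes (edgeR adjusted p at least 0.944).

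A test of the difference between ages called 25 genes, 3 (0.0212%) with a greater MPP3 minus MPP4 difference in aged cells and 22 (0.155%) with a smaller one. The test could not resolve genes at 0 counts in MPP4 at both ages, so a missing call does not mean a stable level. Among such genes, Epx went from 25.0 and 27.5 CPM in young MPP3 to 0.207 and 0 CPM in aged MPP3. Fcer1a rose there from 9.12 to 30.2 CPM on average. Cxcl12, present in MPP4, fell from 75.3 to 1.34 CPM on average in MPP3 and was not called either. Irf8 was at 76.1 and 78.6 CPM in young MPP3 and at 73.5 and 76.3 CPM in young MPP4, and at 31.6 and 34.2 CPM in aged MPP3 and 98.9 and 101.8 CPM in aged MPP4, so that the fractions were alike in young and apart in aged cells (difference between ages -1.70 ± 0.18, adjusted p = 0.000100). Granule genes made up part of the 22: Hp changed from 5.59 to 1.72 (-3.88 ± 0.45, adjusted p = 0.000126), Ngp from 5.17 to 2.58, Ctsg from 3.01 to 0.43, Lcn2 from 4.95 to 2.23 and Chil3 from 5.03 to 2.51. Ctsg was at 11.7 CPM on average in young MPP4 and at 63.7 CPM in aged MPP4, while MPP3 held 94.5 and 88.6 CPM. Xdh, xanthine dehydrogenase, had a difference of 3.44 in young and -0.03 in aged cells (-3.46 ± 0.42, adjusted p = 0.000166). The 3 genes with a greater value were Cpa3 (from 4.99 to 6.82, 1.83 ± 0.21, adjusted p = 0.000126), Sdc1 (from -1.99 to -0.92) and Tmem158 (from -1.47 to -0.40). Calls on the difference were sensitive to single libraries, with 6 to 23 calls when 1 of the 8 libraries was left out, fewest without aged MPP4 replicate 2. Irf8, Hp, Xdh and Cpa3 kept the call in each of these 8 fits and Sdc1 and Tmem158 lost it in each (adjusted p up to 0.0625).

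**Figure D5:**
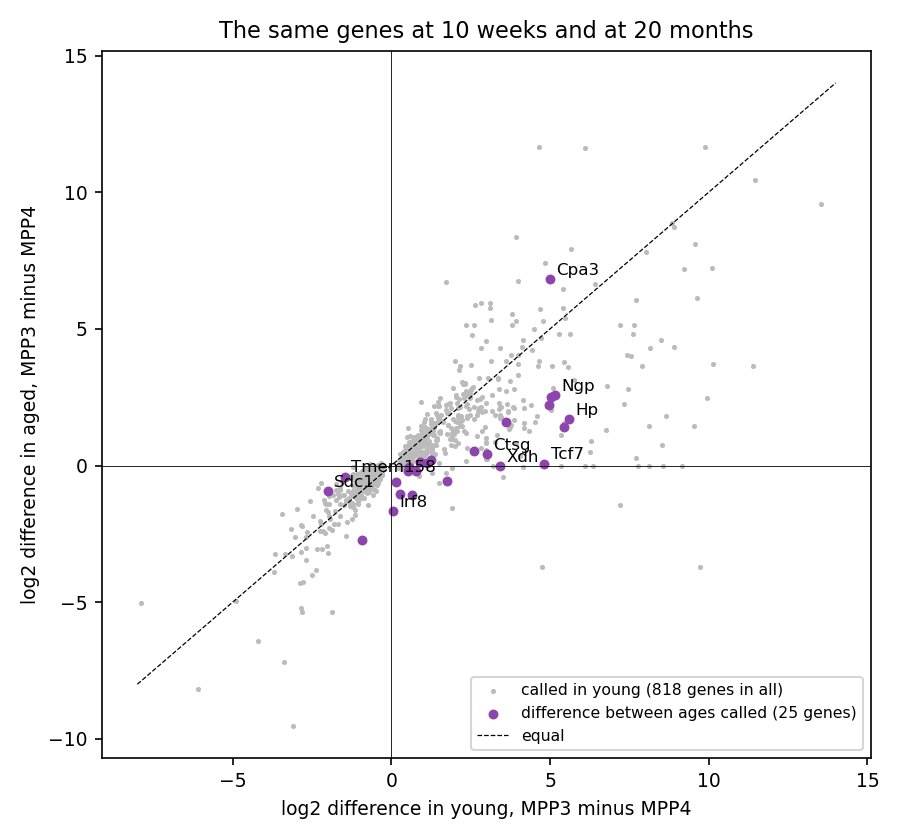
Log2 difference between MPP3 and MPP4 in young (horizontal) and aged (vertical) libraries, with grey points for the genes called in young and purple points for the 25 genes whose difference between ages was called. Most grey points lie at the lower left and upper right, and purple points such as Hp, Ngp, Ctsg and Xdh lie below the dashed line of equal values.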

How the data were processed

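Libraries were made from SMARTer-amplified cDNA and sequenced as single reads. The authors aligned the reads to mm10 with TopHat2 2.0.13 and Bowtie2 2.1.0 and deposited raw gene counts from StringTie. No use of strand and no molecular identifiers were stated, so values of genes with near-identical copies, or with an overlapping or antisense partner, are uncertain, and PCR copies count as reads. The deposited normalized values and the authors' own comparisons of ages (log2 fold changes and p-values) were not used.

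The count table held 24421 genes in 32 libraries of 16 groups. Names turned into dates (27 genes, 0.188% of counts) stayed in the totals. Genes were kept by filterByExpr over the groups, normalized by TMM (factors 1.05 to 1.07 in the 4 libraries) and fitted with 1 mean per group in edgeR 4.0.16 (R 4.3.3) on all 32 libraries, with 16 residual degrees of freedom and a common dispersion of 0.0127. Contrasts were young MPP3 against MPP4, the same in aged cells, their difference, and young GMP against CLP. Two-sided p-values were adjusted by Benjamini-Hochberg over 14154 genes within a contrast. The script was tested on simulated data. SD values are not given for pairs of libraries, whose values are printed instead. The mean chi-square per gene between duplicates was 9.22 in young MPP3 and 12.7 in young MPP4, above sampling noise, so they were counted as separate libraries. This excess does not show whether the duplicates came from separate mice.

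Genes named were the fixed examples of each list, up to 4 called members of each list in each direction with the largest differences, the 12 called genes with the largest difference in each direction at a mean of at least 5 CPM with fractions apart, and the 3 genes of smallest p in each direction of the difference between ages, without predicted, Rik, histone and antigen receptor segment genes. The comparison, the lists (530 different genes in 20 lists, 37 of them in more than 1) and the rule were chosen with earlier results of these data known. Genes outside the rule (such as Cybb, Junb, Dusp2, Cd9, Lcn2 and Chil3, and members that complete a count) were chosen after their values were seen. Positions come from GENCODE M21 (GRCm38), and promoter sequences from RefSeq (GRCm38.p6). Against groups at 0 counts a fold is a bound computed with 3 counts per library. Ratios on 1 to 3 counts carry a 95% interval. Alternatives were DESeq2 1.42.0, its size factors, no filter, only the libraries of a contrast, other thresholds, a replicate block and leaving out each library. A few members of the lists are counted in them but not reported here by name.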

Additional observations from a re-analysis of the deposited data

Results flagged for a closer look

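The difference between MPP3 and MPP4 was not the same at both ages for 6 genes named by the smallest p of the test of that difference (edgeR, n = 2 per group). The log2 difference in aged cells minus that in young cells was -1.70 for Irf8, -3.88 for Hp, -3.46 for Xdh, 1.83 for Cpa3, 1.07 for Sdc1 and 1.06 for Tmem158. Irf8 fell in MPP3 from 77.3 to 32.9 CPM on average and stood at 74.9 and 100.4 CPM in young and aged MPP4. From young to aged cells, mean Hp went from 37.4 to 12.4 CPM in MPP3 and from 0.785 to 3.66 CPM in MPP4. Xdh went from 13.1 to 2.66 CPM in MPP3 and from 1.22 to 2.62 CPM in MPP4. Cpa3 went from 189.0 to 221.6 CPM in MPP3 and from 5.95 to 1.90 CPM in MPP4. Sdc1 fell from 166.4 to 49.1 CPM in MPP4 and from 41.95 to 26.7 CPM in MPP3. Tmem158 fell from 57.3 to 20.0 CPM in MPP4 and from 20.8 to 15.6 CPM in MPP3. The cause of these differences was not tested.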

How the results depend on the processing

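Of 149 genes named by the rule, 110 were called, and 0 of these changed direction under any alternative. Of the 110, 70 kept the call in all 4 fits that left out 1 library, in which the lone library of a fraction is assumed to vary like the other groups. For young MPP3 against young MPP4 (818 calls), an adjusted p under 0.05 gave 1317 calls, a log2 difference of at least 1 in addition 444, DESeq2 1262 (801 of them shared), the 4 libraries alone 595 (492 shared), and leaving out 1 library 424 to 513. For aged MPP3 against aged MPP4 (601), the counts were 1085, 308, 1096 and 302 to 389, and 376 on their own 4 libraries. The difference between ages (25) gave 45 at 0.05, 78 with DESeq2 and 6 to 23 without 1 library. Young GMP against young CLP (7658) gave 3942 with a log2 difference of at least 1. The other size factors and the absence of a filter kept every count within 1.5 times.

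The labels number the replicates 1 and 2 in each group, but deviations of equal numbers correlated only at 0.0321 in young and 0.0413 in aged cells over genes, so the numbers were not taken as pairs. A replicate block gave 808 calls in young MPP3 against young MPP4, 596 in aged MPP3 against aged MPP4, 22 for the difference between ages and 7648 for young GMP against young CLP. Among uncalled genes, leaving out 1 young library turned the sign for 8, with log2 differences from -0.160 to 0.0197 for Csf3r, -0.0697 to 0.109 for Ltb, -0.0442 to 0.150 for Hlf, -0.0285 to 0.000787 for Mcm5, -0.0608 to 0.0161 for Fos, -0.0904 to 0.124 for Tlr4, -3.96 to 3.68 for Tlr9 and -0.328 to 0.311 for Cxcr4.

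With 2 libraries per group, small differences are at the limit of detection. Genes at few counts, such as Rag1 and Bcl11b, rest on few molecules, and no interval given here covers variation between mice.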
